A study of Mus musculus with 2 samples.

Results

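The genes of glycogen synthesis and breakdown that were examined in mouse liver are *Ugp2*, *Gyg*, *Gys2*, *Gbe1*, *Pygl*, *Phka2*, *Ppp1r3b*, *Ppp1r3c* and *Ppp1r3g*. These 9 genes were taken by symbol from the 53342 rows that both liver mRNA sequencing files hold, and every one was found once. The control library came from male mice labelled WT, which the methods describe as IR flox/flox. The iFIRKO library came from male mice that carry Adipoq-CreERT2 and Insr flox/flox, in which tamoxifen switches on a Cre recombinase driven by the adiponectin promoter and deletes the insulin receptor gene in adipocytes, not in hepatocytes. All mice were 7 weeks old when tamoxifen was started, received 100 mg/kg on each of 5 days, and were analysed 3 days after the final dose. Each group has 1 library, and whether a library came from 1 mouse or from several is not given in the sources used here. No p-value was therefore computed, and every difference is one between 2 libraries. The comparison asks how the glycogen genes of the liver stand shortly after mature adipocytes are lost.

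The liver stores glucose as glycogen after a meal and releases it between meals. UDP-glucose pyrophosphorylase (*Ugp2*) makes the activated sugar, glycogenin (*Gyg*) primes the particle, liver glycogen synthase (*Gys2*) lengthens the chains and the branching enzyme (*Gbe1*) joins them into a tree. Liver glycogen phosphorylase (*Pygl*) removes glucose units, and phosphorylase kinase, whose liver alpha subunit is encoded by *Phka2*, switches phosphorylase on. The targeting subunits encoded by *Ppp1r3b*, *Ppp1r3c* and *Ppp1r3g* bring protein phosphatase 1 to the glycogen particle, where it activates the synthase and inactivates phosphorylase. Much of the control of these enzymes is by phosphorylation and by allosteric sugars, which mRNA levels do not show.

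In the iFIRKO library *Gys2* mRNA was 1.71-fold higher than in the control library. *Ugp2*, *Gbe1* and *Pygl* were higher by 1.34-fold, 1.31-fold and 1.29-fold, and *Ppp1r3b* by 1.17-fold, all under the 1.5-fold threshold used here. *Gyg*, *Phka2* and *Ppp1r3c* could not be told from equal at this depth, and *Ppp1r3g* was at the limit of detection in both libraries.

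By GENCODE M21, on the same assembly as the mm10 build named in the labels, *Gys2* lies on the reverse strand of chromosome 6 from 142422613 to 142473109, with 17 exons in its longest coding transcript. *Pygl* lies on the reverse strand of chromosome 12 from 70190811 to 70231488, with 20 exons. *Ugp2* (chromosome 11, 21321138 to 21371201), *Gyg* (chromosome 3, 20122084 to 20155317) and *Ppp1r3c* (chromosome 19, 36731731 to 36736653) are on the reverse strand. *Gbe1* (chromosome 16, 70313949 to 70569716), *Phka2* (chromosome X, 160502166 to 160598878), *Ppp1r3b* (chromosome 8, 35375739 to 35388139) and *Ppp1r3g* (chromosome 13, 35958839 to 35970388) are on the forward strand. Exons of *Ugp2* share 78 bases with *Gm12043* and exons of *Phka2* share 115 bases with *Gm15243*, both on the opposite strand and both listed at 0 in each library. No transcript of another gene matched a member's longest coding transcript at 95% identity or more over at least 100 bases.

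Promoter windows from 250 bases before to 50 bases after a start site were taken from RefSeq on GRCm38 for 7 of the genes, in 8 windows. *Gys2* and *Ppp1r3b* had none. The windows were searched on both strands for CACGTG, the E-box bound by basic helix-loop-helix factors such as USF, for GTAAACA, which forkhead factors bind, and for TGACGTCA, the cAMP response element. These motifs do not overlap each other. CACGTG was found in the windows of *Gyg* and *Ppp1r3c*, and in 7.15% of all 32851 windows. GTAAACA and TGACGTCA were in none of the 8 windows, against 3.65% and 1.79% of all windows. The E-boxes are shown because they were the only matches among the glycogen genes, with the motif in capitals and the gene's own strand read 5′ to 3′. The *Gyg* stretch, at chr3:20155091-20155120, lies in an annotated exon, and the *Ppp1r3c* stretch, at chr19:36736691-36736720, lies upstream of the annotated gene.
Gyg: agcctgcgcggcCACGTGacggccgctata
Ppp1r3c: gagggaccggttCACGTGatctggctttga

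The values are normalized read counts as the authors scaled them, with the log2 undone. From the step between low values, which shows what 1 read pair is worth, 21138484 read pairs were estimated on genes for control and 20652740 for iFIRKO. Many low values were not whole pairs, so the pair numbers behind the intervals are estimates. Intervals are exact 95% intervals for counting error only, and leave out variation between mice.

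Levels between genes were compared as normalized reads per kb of exon. In the control library the order was *Pygl* (3599 per kb), *Ppp1r3b* (2987), *Ugp2* (2849), *Gys2* (1757), *Ppp1r3c* (1363), *Gbe1* (789), *Phka2* (146), *Gyg* (134) and *Ppp1r3g* (1.48). The counting intervals of *Ppp1r3b* (2926 to 3048) and *Ugp2* (2765 to 2934) overlapped, as did those of *Phka2* (132 to 160) and *Gyg* (114 to 157). In the iFIRKO library *Ugp2* (3815 per kb) stood above *Ppp1r3b* (3506), and the order was otherwise the same. That exchange depends on the length used, since with the longest coding transcript *Ppp1r3b* (4969 per kb) stayed above *Ugp2* (4363). With that length *Gbe1* (1674 per kb) also stood above *Ppp1r3c* (1352) in the iFIRKO library, the reverse of the order by exon length. *Pygl* came first and *Ppp1r3g* last with either length.

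**Figure D1:**
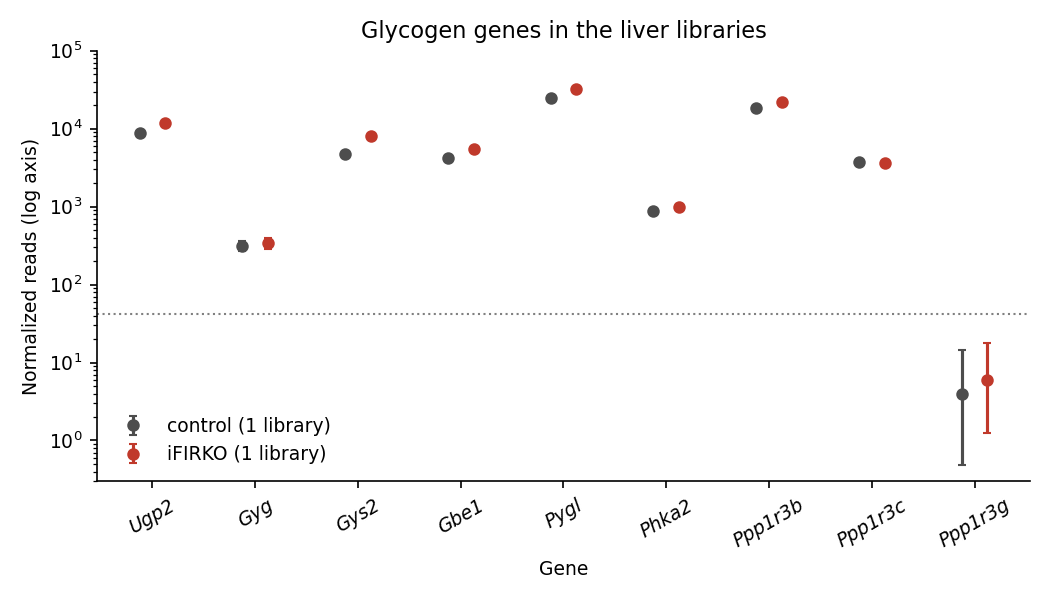
Normalized reads of the 9 glycogen genes (log axis, not divided by length) in 1 control and 1 iFIRKO library, with exact 95% Poisson intervals for counting error that are mostly smaller than the points. The dotted line is the minimum of 41.8 normalized reads for testing; all but *Ppp1r3g* lie above it in both libraries, and the widest gap on this axis is that of *Gys2*, 4668 against 7992.

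Among the synthesis enzymes, *Gys2* stood at 4668 normalized reads in control liver and at 7992 in iFIRKO liver. The log2 fold change was 0.78 (interval 0.70 to 0.85), and 354 of the 13400 genes tested had a higher one. *Ugp2*, which supplies the substrate of the synthase, stood at 8743 in control liver and at 11707 in iFIRKO liver, and its log2 fold change was 0.42 (0.36 to 0.48). *Gbe1*, the branching enzyme, stood at 4223 and 5530, which came to 0.39 (0.31 to 0.47) on the log2 scale. *Ugp2* and *Gbe1* thus stood about level with each other in their difference, both below *Gys2*. *Gyg*, the primer, stood at 314 in control and 338 in iFIRKO liver, where the log2 fold change of 0.10 has 0 inside its interval (-0.21 to 0.43). At 158 and 168 read pairs, a difference in *Gyg* as large as that of *Ugp2* or *Gbe1* lies inside that interval, while one as large as that of *Gys2* lies outside it.

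Among the breakdown enzymes, *Pygl* stood at 24814 normalized reads in control liver and at 31994 in iFIRKO liver. The log2 fold change was 0.37 (0.33 to 0.40), below that of *Gys2*. *Phka2*, the regulatory alpha subunit of phosphorylase kinase, stood at 884 and 979. This log2 fold change of 0.15 (-0.04 to 0.33) could not be told from 0 at this depth.

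The targeting subunits of protein phosphatase 1 differed among themselves. *Ppp1r3b*, also named GL for the liver form, stood at 18565 normalized reads in control liver and at 21794 in iFIRKO liver, or 0.23 (0.19 to 0.27) on the log2 scale. *Ppp1r3c*, also named PTG, stood at 3715 and 3683, or -0.01 (-0.11 to 0.08) on the log2 scale. The interval of *Ppp1r3c* lies wholly below that of *Ppp1r3b*, and its sign turned to 0.03 when the hepatocyte markers were used for scaling. *Ppp1r3g* had an estimated 2 read pairs in control liver and 3 in iFIRKO liver. The ratio of 1.52 had a counting interval from 0.174 to 18.2, so nothing can be read from it.

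With a fold change above 1.5 as the threshold, 8 of the 9 genes reached the expression minimum (a CPM of 1, here 41.8 normalized reads, in at least 1 library), and *Ppp1r3g* did not. Of the 8 genes, 1 was past the threshold upwards, *Gys2*, beside 4.46% of all 13400 tested genes, and none was past it downwards, beside 7.28%. Because most of the glycogen genes are abundant, the 8842 tested genes with a mean at least that of *Gyg* are a closer background, and of these 2.23% were past the threshold upwards and 3.42% downwards. With only 8 genes, 1 gene past the threshold says little about the list. The log2 fold change was above 0 for 7 of the 8, beside 51.3% of all tested genes. The counting interval lay wholly above 0 for 5 of the 8, beside 25.1% of the tested genes at least as abundant as *Gyg*. It lay wholly below 0 for none. The share of tested genes with an interval wholly below 0 was not computed, here or for the marker lists below. The median log2 fold change of the 8 genes was 0.30, and that of all tested genes was 0.01. *Gys2*, *Ugp2* and *Gbe1* had higher log2 fold changes than 97.4%, 91.9% and 90.8% of tested genes, *Pygl* than 89.8%, and *Ppp1r3b* than 81.1%. *Phka2*, *Gyg* and *Ppp1r3c* stood at 71.8%, 65.4% and 46.8%, so the 8 genes spread from the middle of all genes to near the top.

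**Figure D2:**
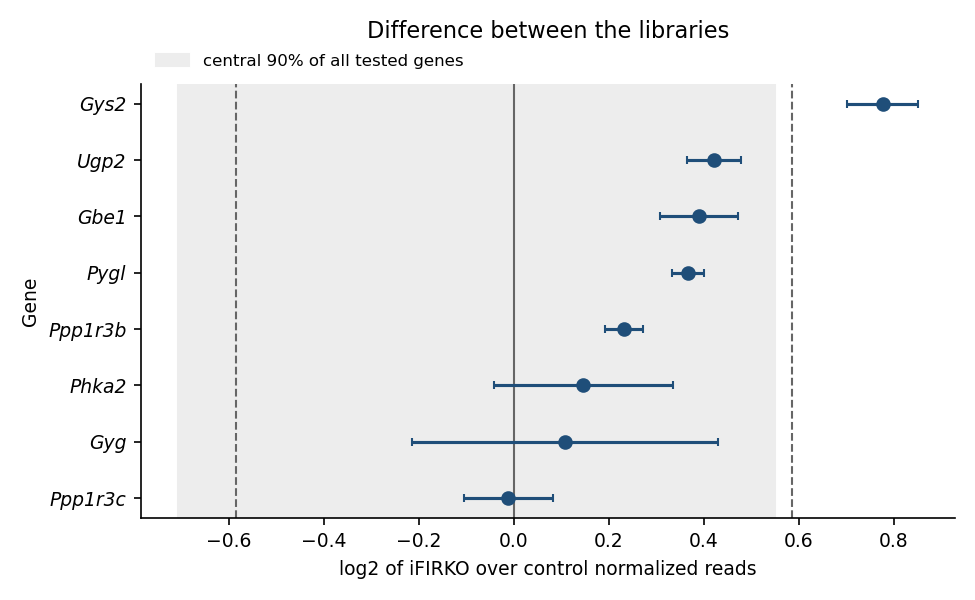
log2 of iFIRKO over control normalized reads for the 8 glycogen genes above the minimum, with exact 95% counting intervals (1 library per group). Dashed lines mark a 1.5-fold difference and the grey band holds the central 90% of all 13400 tested genes (-0.71 to 0.55); only *Gys2*, at 0.78, lies outside the band.

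A ratio of 2 genes within a library does not depend on how the libraries were scaled. *Gys2* had 0.188 read pairs for each pair of *Pygl* in control and 0.25 in the iFIRKO library, a log2 difference of 0.41 with an exact interval from 0.33 to 0.49. The synthase was therefore higher relative to the phosphorylase of the same library. *Gys2* was also higher relative to the other members, by 0.35 (0.26 to 0.45) on the log2 scale against *Ugp2* and 0.39 (0.28 to 0.50) against *Gbe1*. The log2 difference was 0.54 (0.46 to 0.63) against *Ppp1r3b*, 0.63 (0.43 to 0.83) against *Phka2*, 0.67 (0.34 to 1.0) against *Gyg* and 0.79 (0.67 to 0.91) against *Ppp1r3c*. These 7 ratios share the reads of *Gys2*, and since *Gys2* had the highest fold change of the 8 genes their direction was fixed by that choice. For the summed read pairs of the 4 synthesis enzymes over those of *Pygl* and *Phka2*, the ratio was 0.698 in control and 0.775 in the iFIRKO library, a smaller log2 difference of 0.15 (0.10 to 0.20). *Ppp1r3b* had 5.00 read pairs for each pair of *Ppp1r3c* in control and 5.92 in the iFIRKO library, a log2 difference of 0.24 (0.14 to 0.34).

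**Figure D3:**
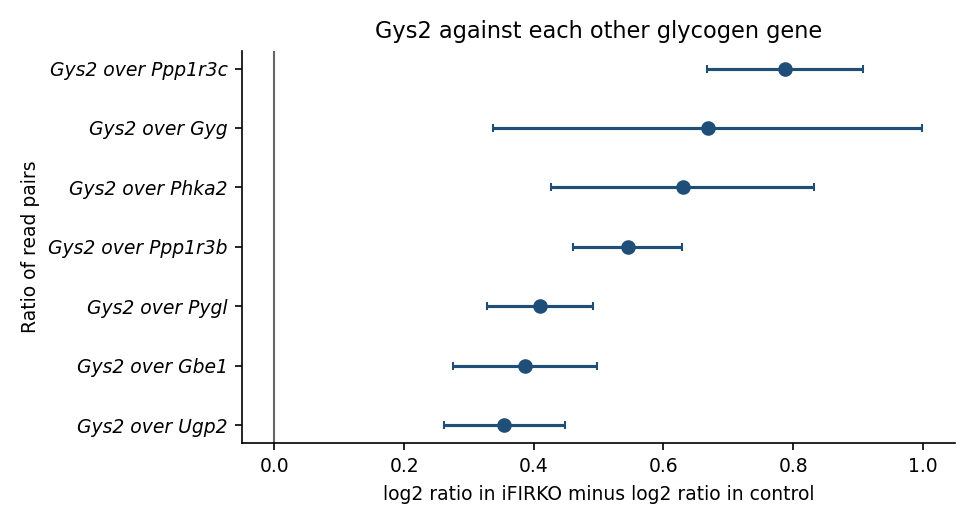
Difference between the libraries in the log2 ratio of *Gys2* read pairs to those of each other glycogen gene, with exact 95% intervals for counting error. The differences run from 0.35 against *Ugp2* to 0.79 against *Ppp1r3c*, all above 0 because *Gys2* had the highest fold change; *Ppp1r3g* is left out because it had 2 and 3 read pairs.

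The liver isozymes dominated their families in both libraries. *Gys2* gave 96.7% (95.9 to 97.4) of the read pairs of both glycogen synthase genes in control and 97.6% (97.1 to 98.1) in the iFIRKO library. *Gys1*, the muscle synthase, had 160 and 195 normalized reads. *Pygl* gave 98.5% (98.3 to 98.7) of phosphorylase read pairs in control and 99.0% (98.9 to 99.2) in the iFIRKO library, the rest being *Pygb*, the brain form, and *Pygm*, the muscle form. *Phka2* shared its family more evenly with the muscle subunit *Phka1*, with 77.0% (73.3 to 80.4) of read pairs in control and 75.7% (72.2 to 79.0) in the iFIRKO library, which overlap. Of the read pairs of the 7 targeting subunit genes, *Ppp1r3b* gave 82.6% (81.9 to 83.3) in control and 85.0% (84.3 to 85.6) in the iFIRKO library, while *Ppp1r3c* gave 16.5% (15.9 to 17.2) and 14.4% (13.8 to 15.0). Per kb of exon the share of *Ppp1r3b* was lower, 67.6% and 71.2%, and that of *Ppp1r3c* was 30.9% and 27.5%. *Ppp1r3e* had 75 and 68 read pairs, *Ppp1r3d* 5 and 11, and *Ppp1r3f* 11 and 3. *Ppp1r3a*, the muscle targeting subunit, was listed at 0 in both libraries, the value given to any scaled count up to 1.

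Of 47 other genes of the pathway, 43 were above the minimum. Of the 43, 1 gene, *Nhlrc1*, was past the 1.5-fold threshold upwards, beside 4.46% of all tested genes. None was past it downwards, beside 7.28%. The median log2 fold change of the 43 was 0.07. *Nhlrc1*, which encodes malin, the ubiquitin ligase that acts with laforin on glycogen metabolism, is barely above the minimum, at 43.7 normalized reads in control liver and 80.5 in iFIRKO liver. Its log2 fold change of 0.82 rests on 22 and 40 read pairs. The plain ratio of these pairs came to 0.88 on the log2 scale, with an interval from 0.10 to 1.70. Its partner *Epm2a*, which encodes laforin, had 215 and 210 normalized reads.

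On the way in, *Slc2a2*, the glucose transporter GLUT2 of hepatocytes, lay just under the threshold, at 9018 and 13495, with a log2 fold change of 0.58 (0.53 to 0.64). The row named *Pgm2* had 8881 and 9810 normalized reads and that named *Pgm1* 274 and 252. RefSeq lists each of these phosphoglucomutase symbols as a synonym of the other gene, so which gene each row holds is uncertain.

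Of the genes that finish the release of glucose, all 3 had intervals wholly above 0 without reaching the threshold. Such an interval was found for 25.1% of tested genes at least as abundant as *Gyg*, which *G6pc3* is not. *G6pc*, the catalytic subunit of glucose-6-phosphatase, stood at 22526 and 28780, or 0.35 (0.32 to 0.39) on the log2 scale. *Slc37a4*, which carries the phosphorylated sugar into the endoplasmic reticulum, had 6539 and 8555, a log2 fold change of 0.39 (0.32 to 0.45). *G6pc3*, the widely expressed form, had 203 and 289, a log2 fold change of 0.50 (0.13 to 0.89). The differences of *G6pc* and *Slc37a4* are about the size of that of *Pygl*.

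The rest of the breakdown and control genes mostly lay near equal. The lysosomal glucosidase *Gaa* had 3368 and 3390 normalized reads, a log2 fold change of 0.01. *Stbd1*, which tethers glycogen to membranes, stood at 1331 and 1780, a log2 fold change of 0.42 (0.27 to 0.57). Of the 6 tested phosphorylase kinase subunits outside the members, none was past the threshold, with log2 fold changes from 0.01 to 0.25. The catalytic subunits of protein phosphatase 1 had log2 fold changes of 0.07 for *Ppp1ca*, 0.01 for *Ppp1cb* and -0.14 for *Ppp1cc*. Of 8 kinases that act on or above the synthase, none was past the threshold, and *Gsk3a*, which phosphorylates the synthase and holds it inactive, stood at 1866 and 2172, or 0.22 (0.09 to 0.35) on the log2 scale. *Akt2* and *Csnk2a1* had log2 fold changes of 0.06 and -0.03, and the interval of each held 0. *Prkaa2* stood at 0.18 (0.07 to 0.29) and *Akt1* at -0.17 (-0.29 to -0.06), the only kinase whose interval lay below 0. Of 8 genes of hormone and cAMP signalling, none was past the threshold. Few genes pass it in any list of this size, since 4.46% of all tested genes did so upwards and 7.28% downwards. The glucagon receptor gene *Gcgr* had 7985 and 8500 normalized reads, *Gnas* 12766 and 15077 and *Prkar1a* 6007 and 6202.

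**Figure D4:**
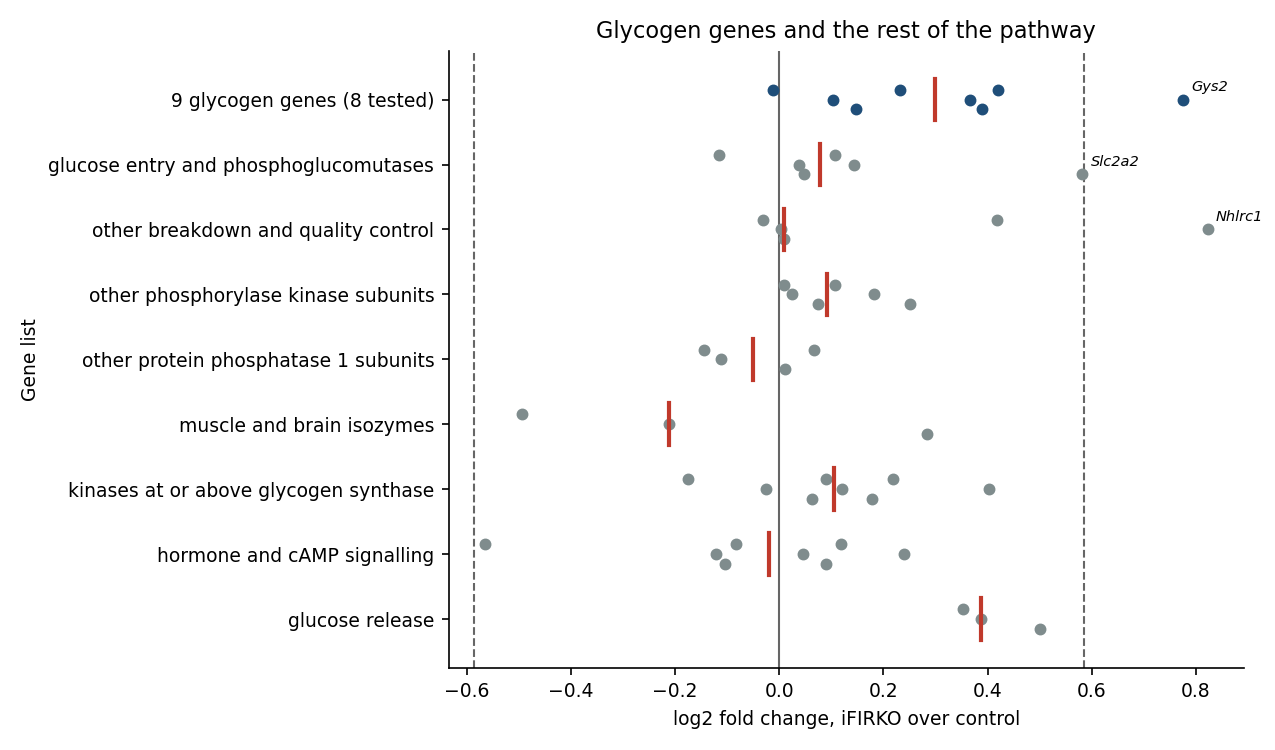
log2 fold change, iFIRKO over control, of each tested gene (points) in the glycogen genes and in 8 lists of other pathway genes, with the median of each list as a red bar and 1.5-fold as dashed lines. *Gys2* and *Nhlrc1* lie past the upper line and *Slc2a2* at it; the median is 0.30 for the glycogen genes, 0.39 for glucose release and between -0.21 and 0.11 for the other lists.

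Genes of other kinds also differed between these libraries. Of 7 tested feeding and insulin responsive genes, 2 were past the threshold downwards, *Igfbp1* (log2 fold change -1.41) and *Irs2* (-1.28), and the median was -0.43. The list was not split by the direction of each response, so the sign of its median has no single reading. The liver level of *Insr*, the gene deleted in adipocytes, was 4246 in control and 3692 in iFIRKO. Of 13 clock genes, 1 was past the threshold upwards, *Ciart* (1.29), and 2 downwards, *Per3* (-1.10) and *Dbp* (-1.02). *Ciart* and *Dbp* had few reads. *Ciart* rests on 25 and 62 read pairs (interval 0.64 to 2.06) and *Dbp* on 25 and 11 (-2.34 to -0.09). The 7 hepatocyte markers found had a median of -0.04 and ran from -0.94 to 0.29, with 1 gene, *Apoa1* (-0.94), past the threshold. Their intervals lay wholly above 0 for 2 and wholly below 0 for 5. All 8 Kupffer cell and macrophage markers, all 6 endothelial markers and all 3 tested lymphocyte and neutrophil markers had intervals wholly below 0, and 5, 2 and 3 of them were past the threshold, with summed normalized reads of 30092 and 19564, 9174 and 6668, and 544 and 171. All 6 erythroid markers were past the threshold upwards, with sums of 13455 and 27006. None of the 6 stellate, 5 cholangiocyte and 5 periportal markers was past the threshold, and 1 of 5 pericentral markers was past it downwards, *Cyp1a2* (-0.67). Of the 5 skeletal muscle markers only *Mylpf* passed the minimum, and it was higher, at 22.1 and 49.5 normalized reads or 11 and 25 read pairs. The muscle markers *Ckm* and *Myh4* were listed at 0 in both libraries, while *Tnnt3* had 0 and 1 read pairs and *Acta1* 2 and 1. Of the 6 adipocyte markers only *Fabp4* passed the minimum, at 470 and 469 normalized reads. *Adipoq* and *Plin1* each had 0 and 1 read pairs, *Cfd* had 0 and 4, and *Lep* and *Retn* were listed at 0 in both libraries. In bulk liver, more cells of a type and more RNA per cell cannot be told apart. The paper reports insulin resistance and raised serum insulin in iFIRKO mice. The part of insulin level, cell makeup, feeding state or time of day in the glycogen gene values was not tested.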

How the data were processed

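Liver total RNA was made into TruSeq stranded mRNA libraries and sequenced on a NovaSeq instrument. The values that the authors deposited are log2 normalized read counts, 1 per row named by a gene symbol, where 0 stands for a scaled count of at most 1. The labels give the build mm10, while the aligner, counter, annotation, scaling and use of strand are not given in the sources used here. The log2 was undone, and folds were taken as iFIRKO over control after adding a pseudocount of 4.18 to each (a CPM of 0.1). The 13400 genes that reached a CPM of 1 (41.8 normalized reads) in at least 1 library were tested against a fold of 1.5, the threshold of the methods. One read pair was worth 1.99 normalized reads for control and 2.01 for iFIRKO, from the commonest value under 20. Of the values under 20, 48.2% and 47.0% were whole pairs within 0.01. Intervals were exact (Clopper-Pearson for ratios and shares, Poisson for levels, conditional odds ratio for ratios of ratios) and covered counting error only. An interval printed beside a fold change is that of the plain ratio of estimated read pairs, without the pseudocount. Lengths and positions came from GENCODE M21, which holds 49684 of the 53241 distinct symbols, and promoter windows from RefSeq on GRCm38.

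The members, lists and tests were chosen with earlier results of these data known. All 9 members are named, with pathway genes past 1.5-fold and otherwise up to 3 of each list by level. Of the other lists at most 2 by fold are named. Some listed genes count in the totals but are not reported here. The other pathway genes named, *Insr*, *Dbp* and the muscle and adipocyte markers with few or no reads were chosen after their values were seen. So were the ratios of *Gys2* to members other than *Pygl*. Alternatives were another pseudocount, the plain ratio, other minimums, a fold of 2, summed duplicate symbols, scaling by the median ratio, by a trimmed mean of log ratios, by totals without the 20 most abundant genes or by hepatocyte markers, and another gene length. The fold and interval were tested on simulated data with whole read pairs, drawn from the counting model that the interval assumes. The simulation held no variation between mice, so it cannot show how well the intervals hold for these libraries. Statistics were computed with scipy 1.17.1 and numpy 2.4.6 in Python 3.11.15, tables with pandas 2.3.3, similarity searches with BLAST 2.17.0 and figures with matplotlib 3.10.9.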

Additional observations from a re-analysis of the deposited data

How the results depend on the processing

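*Gys2* was the only glycogen gene past the threshold under each of the 11 alternatives but a fold above 2, where the count was 0. Its log2 fold change lay between 0.76 and 0.82, and the median of the glycogen genes between 0.29 and 0.34. A change of minimum, fold threshold or duplicate symbols (5 alternatives) left each single-gene fold as it was. Of the 48 values under the 6 alternatives of pseudocount and scaling, 46 stayed inside their counting interval. The other 2, *Pygl* at 0.41 and *Ppp1r3b* at 0.27, came from scaling to the hepatocyte markers, which moved the median of all genes by 0.04. The count of other pathway genes past the threshold upwards, 1 in the main setting, was 0 with a pseudocount of a CPM of 1, with a minimum CPM of 5, which leaves out *Nhlrc1*, and with a fold above 2. It was 3 without a minimum, where genes with few reads enter, and 2 with the hepatocyte scaling, which adds *Slc2a2*. The count downwards, 0, was 1 without a minimum (*Ppp1r3f*) and 1 when no pseudocount was added. Over all tested genes, 597 were higher and 976 lower, against 371 and 576 with a pseudocount of a CPM of 1, 1960 and 2620 without a minimum, 288 and 440 with a minimum CPM of 5, and 209 and 267 with a fold above 2. Per kb of exon the family share in the control and iFIRKO libraries was 98.1% and 98.7% for *Gys2*, 97.7% and 98.5% for *Pygl* and 67.6% and 71.2% for *Ppp1r3b*. The log2 difference in the ratio of synthesis to breakdown was 0.15 with summed enzymes, against 0.41 for *Gys2* over *Pygl*. Where no construction is given here, the cause was not tested. No paired analysis was possible because there is only 1 library a group.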
